A study of Homo sapiens with 6 samples.

Results

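The genes described here are 10 histone lysine demethylases, chosen by name from the deposited count table: KDM1A, KDM2A, KDM2B, KDM3A, KDM4A, KDM4B, KDM4C, KDM5A, KDM5B and KDM6B. All 10 had a row among the 26334 genes of the table, and all 10 passed the filter on low counts that left 16117 genes for testing. RNA was sequenced from MCF10DCIS.com cells, a human breast cancer line of the MCF10A lineage whose xenografts form lesions like ductal carcinoma in situ. The cells were grown in DMEM/F12 with horse serum, transduced with the pRSI-U6 vector carrying a short hairpin against luciferase (shLuc, the control, 3 libraries) or against WDR5 (shWDR5, 3 libraries), and selected with puromycin. Both groups therefore carry the same vector, with TagRFP and puromycin resistance, and differ in the hairpin; whether shWDR5 is 1 hairpin or a pool is not given in the labels. All libraries come from 1 line and a stably transduced, selected population, and the labels do not say whether the replicates were separate cultures, so the p-values measure the spread between these libraries, which may be technical. WDR5 is a WD40 subunit shared by the enzyme complexes that methylate lysine 4 of histone H3 (H3K4), so the comparison asks what its silencing did to the transcripts of the enzymes that take lysine methylation off.

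Histone lysine demethylases fall into 2 chemical classes. KDM1A (LSD1) is a flavin-dependent amine oxidase that removes mono- and dimethylation, and the JmjC enzymes are iron-dependent oxygenases that use oxygen and 2-oxoglutarate and can also remove trimethylation. Each enzyme prefers certain lysines. KDM1A, KDM5A and KDM5B act on H3K4, a mark of promoters and enhancers. KDM2A and KDM2B act on H3K36 and bind unmethylated CpG islands, KDM3A acts on H3K9, a mark of repressed chromatin, KDM4A, KDM4B and KDM4C act on both H3K9 and H3K36, and KDM6B (JMJD3) acts on H3K27, the Polycomb mark. In breast epithelium these enzymes are studied as regulators of luminal and basal identity, hypoxia responses and EMT.

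Total counts ran from 38218108 to 57640167 per library, and libraries of a group correlated more closely (Spearman's rho 0.996 to 0.998 across genes) than libraries of different groups (0.977 to 0.982). The targeted gene was lower in the libraries labelled shWDR5: WDR5 stood at 52.6, 48.5 and 51.3 TMM-scaled CPM (counts scaled to library size) in the shLuc libraries and at 23.4, 24.4 and 20.8 CPM in the shWDR5 libraries, 45.0% of control (log2 fold change -1.15 ± 0.07 SE, edgeR quasi-likelihood adjusted p = 8.7e-07). The epithelial markers fixed for this line (basal markers with CDH1 and EPCAM) were all expressed, with summed levels of 3898 to 4095 CPM in shLuc and 6275 to 7113 CPM in shWDR5. 5 of these 7 markers, all basal, rose (among them KRT14 by 1.29 and KRT6A by 1.83 on the log2 scale). CDH1 and EPCAM, which mark epithelium in general, fell by 1.03 and 0.33. Markers of other cell types ranged from 0 to the level of ordinary expressed genes. The luminal factor GATA3 stood at 35.0 CPM in shLuc, COL1A1 at 22.1 CPM and CD68 at 11.9 CPM, and by mean RPKM they lay above 64.2%, 40.3% and 53.1% of all tested genes. The leukocyte marker CD3E had no read in any library, the fibroblast marker DCN and the progesterone receptor PGR had at most 2 reads in a library, and the summed levels of the fibroblast (4 genes), endothelial and leukocyte (5 genes) and luminal hormone receptor (3 genes) lists were 21.6 to 23.6, 17.3 to 19.6 and 35.8 to 42.2 CPM in shLuc and 14.9 to 17.8, 14.3 to 16.5 and 29.0 to 31.1 CPM in shWDR5. Of the 6 genes of these 3 lists that passed the filter, 3 fell (GATA3, COL1A1 and PECAM1, by 0.39, 0.50 and 0.71 on the log2 scale), and the log2 fold changes of ESR1, PDGFRB and CD68 were -0.10, -0.67 and -0.10 without passing the test. PDGFRB, with 11 to 46 reads in a library, ranged from -1.01 to -0.20 when 1 library was left out, and passed as lower without shLuc replicate 3 (edgeR adjusted p = 0.021) and with the replicate block (adjusted p = 0.049). Without shLuc replicate 1 its value was -0.20. The part of these shifts in the results below was not tested. In a bulk library, a change in the share of cells that express a gene and a change in its RNA per cell cannot be told apart.

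6 of the 10 demethylases rose on WDR5 silencing and none fell. KDM4B, KDM3A, KDM6B and KDM4C, enzymes of H3K9, H3K36 and H3K27, rose 1.60- to 1.85-fold. KDM5B rose 1.40-fold and KDM4A 1.22-fold, whereas KDM1A, KDM2A, KDM2B and KDM5A did not pass the test. Across all tested genes, 26.6% were called higher, 29.9% lower and 56.5% in either direction by the same test (edgeR's quasi-likelihood test, Benjamini-Hochberg adjusted p under 0.05), so that the 6 of 10 called in either direction lie near the share of all genes, while the calls in one direction stand against 26.6%. No member was lower at an unadjusted p under 0.05 (0 of 10) or by DESeq2 (0 of 10), and 7 were higher at an unadjusted p under 0.05 and 6 by DESeq2. Across all genes DESeq2 called 4052 higher and 4353 lower, and no share of all genes was taken at the unadjusted p. The median log2 fold change was 0.38 over the members and -0.01 over all tested genes.

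The promoters of KDM3A, KDM4B, KDM4C and KDM6B are shown because these 4 members rose together and most; binding and methylation at them were not measured here. Each is the 250 bases before the first start site that the RefSeq table lists for the gene (GRCh38.p14, written 5′ to 3′ on the strand of the gene), whereas gene coordinates further on follow the hg19/GRCh37 build of the count table. Windows were matched to genes by symbol and not by position. A window shown may therefore lie upstream of, or inside, the gene as it was counted, and need not be the promoter of the transcript that rose. Capitals mark ACGTG and GCGTG on either strand, the core letters of the hypoxia response element. CACGTG, the E-box bound by MYC and related factors, contains ACGTG on both strands and is therefore also in capitals.
KDM3A, chr2:86441121-86441370, plus strand: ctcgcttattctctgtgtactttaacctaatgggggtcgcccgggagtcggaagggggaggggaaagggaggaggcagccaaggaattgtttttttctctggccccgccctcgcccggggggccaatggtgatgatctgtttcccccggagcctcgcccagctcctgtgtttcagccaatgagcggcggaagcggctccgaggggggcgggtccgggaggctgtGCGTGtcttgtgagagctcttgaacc
KDM4B, chr19:4968863-4969112, plus strand: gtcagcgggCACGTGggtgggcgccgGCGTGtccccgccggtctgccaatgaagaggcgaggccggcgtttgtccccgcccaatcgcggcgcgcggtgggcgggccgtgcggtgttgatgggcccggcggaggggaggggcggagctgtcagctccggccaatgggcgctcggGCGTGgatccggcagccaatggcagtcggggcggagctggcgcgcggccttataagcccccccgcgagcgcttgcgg
KDM4C, chr9:6757723-6757972, plus strand: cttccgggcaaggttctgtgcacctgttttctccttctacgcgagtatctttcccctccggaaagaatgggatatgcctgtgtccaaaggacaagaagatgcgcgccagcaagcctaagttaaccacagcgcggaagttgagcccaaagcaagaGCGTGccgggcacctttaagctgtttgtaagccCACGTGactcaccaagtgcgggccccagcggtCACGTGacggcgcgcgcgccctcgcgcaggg
KDM6B, chr17:7833967-7834216, plus strand: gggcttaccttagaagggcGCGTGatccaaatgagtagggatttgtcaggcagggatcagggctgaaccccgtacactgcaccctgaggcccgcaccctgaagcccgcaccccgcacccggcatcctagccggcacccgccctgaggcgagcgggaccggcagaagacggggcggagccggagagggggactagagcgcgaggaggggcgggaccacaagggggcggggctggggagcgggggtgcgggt

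In the windows shown, KDM4C held CACGTG at 2 places and KDM4B at 1, and those of KDM3A and KDM6B held GCGTG only. RefSeq listed 16 start sites for the 10 members, all of which matched by symbol. ACGTG or GCGTG stood in 13 of these 16 windows, including those of KDM1A and KDM5A, which did not pass the test, against 43.2% of all 35116 windows of that length. CACGTG stood in 2 of the 16, against 6.34% of all windows. The member windows were richer in CG dinucleotides than most, with a median of 21 (range 1 to 40) against 11 over all windows and with 13 of the 16 above 11, and both motifs counted here contain CG. The 2 KDM3A windows share 160 bases and hold the same GCGTG. A second KDM6B window (chr17:7839667-7839916), not shown, held neither ACGTG nor GCGTG and had a CG count of 1. Which KDM6B window adjoins the start of the counted gene was not determined. Which start sites these cells used was not measured. These matches describe letters and not bound sites.

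Among the H3K4 demethylases of the member list, KDM5B was the one that rose. KDM5B (chr1:202696532-202777549, minus strand, hg19), a JmjC enzyme that removes di- and trimethylation and is known as a luminal-associated factor in breast cancer, stood at 163, 165 and 170 CPM in the shLuc libraries and at 235, 227 and 235 CPM in the shWDR5 libraries. The groups did not overlap, and all shWDR5 libraries lay well above the highest control. The log2 fold change was 0.48 ± 0.05 SE (edgeR adjusted p = 1.8e-05). KDM5A (chr12:389223-498621, minus strand), its paralog with the same substrate, stood at 76.4, 75.2 and 75.7 CPM in shLuc and at 74.7, 75.5 and 71.5 CPM in shWDR5. These ranges overlapped, and the 95% interval of the log2 fold change ran from -0.15 to 0.08. 106 bases, 0.978% of the KDM5A exons, are shared with CCDC77, and how reads there were assigned is not known, since the strand setting is not given.

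KDM1A (chr1:23345941-23410184, plus strand), the catalytic subunit of the CoREST corepressor, stood at 106, 98.5 and 105 CPM in shLuc and at 102, 100.5 and 96.9 CPM in shWDR5. The groups overlapped, and the log2 fold change had a 95% interval from -0.17 to 0.07. A change of the size seen for KDM5B lay outside the intervals of both KDM1A and KDM5A.

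**Figure D1:**
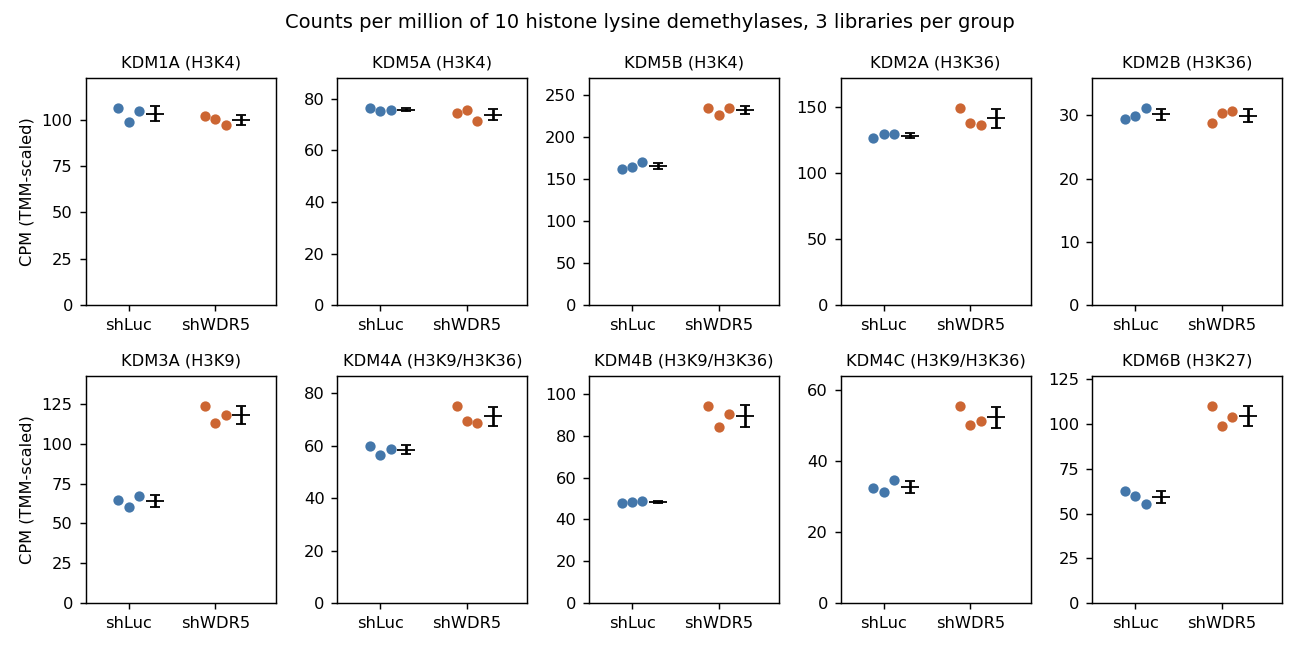
TMM-scaled CPM (y axis, from 0) of each demethylase in the 3 shLuc (blue) and 3 shWDR5 (orange) libraries, with the mean and SD beside each group and the main histone lysine of each enzyme in the panel title. In 7 panels every shWDR5 point lies above every shLuc point; KDM1A, KDM5A and KDM2B overlap.

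Neither KDM2 enzyme passed the test. KDM2B (chr12:121866900-122018920, minus strand), which recruits a variant Polycomb repressive complex PRC1 to CpG islands, stood at 29.5, 30.0 and 31.2 CPM in shLuc and at 28.8, 30.4 and 30.7 CPM in shWDR5. Its groups overlapped, and the 95% interval of its log2 fold change ran from -0.15 to 0.13. KDM2A (chr11:66886740-67025550, plus strand), its CpG-binding paralog, stood at 126, 129 and 130 CPM in shLuc and at 149, 138 and 136 CPM in shWDR5. All shWDR5 values of KDM2A were above the controls, but the difference was small (log2 fold change 0.14 ± 0.05 SE) and missed the threshold (edgeR adjusted p = 0.053). This call depended on the scaling: with DESeq2's size factors in the same test it passed (adjusted p = 0.032). The groups of 7 members did not overlap, all 7 higher in shWDR5, where 29.9% of all tested genes did not overlap and were higher (62.3% did not overlap in either direction).

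KDM3A and the KDM4 enzymes, which act on H3K9, held 4 of the 6 rises. KDM3A (chr2:86668271-86719839, plus strand) removes mono- and dimethylation from H3K9 and is a textbook target of hypoxia-inducible factor. It stood at 64.5, 60.0 and 67.2 CPM in shLuc and at 124, 113 and 118 CPM in shWDR5. The lowest shWDR5 value was far above the highest control, with a log2 fold change of 0.89 ± 0.06 SE (edgeR adjusted p = 1.6e-06), larger than that of 93.6% of all tested genes.

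KDM4B (chr19:4969124-5153608, plus strand), a coactivator of nuclear receptors that removes di- and trimethylation from H3K9, stood at 47.7, 48.3 and 48.9 CPM in shLuc and at 94.4, 84.0 and 90.5 CPM in shWDR5. Control libraries were nearly identical and all shWDR5 libraries far above them (log2 fold change 0.89 ± 0.06 SE, edgeR adjusted p = 1.2e-06). KDM4C (chr9:6720863-7175648, plus strand), known as GASC1 and amplified in some basal breast cancers, stood at 32.2, 31.2 and 34.6 CPM in shLuc and at 55.5, 50.0 and 51.2 CPM in shWDR5. Its groups were also separate (log2 fold change 0.68 ± 0.07 SE, edgeR adjusted p = 1.5e-05).

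KDM4A (chr1:44115797-44171189, plus strand) rose least of the KDM4 enzymes. It stood at 60.0, 56.5 and 58.9 CPM in shLuc and at 75.3, 69.5 and 68.8 CPM in shWDR5, with no overlap (log2 fold change 0.28 ± 0.06 SE, edgeR adjusted p = 0.0021). Its 95% interval, 0.15 to 0.41, did not reach those of KDM4B (0.76 to 1.02) and KDM4C (0.53 to 0.83). 3.02% of the KDM4A exon length is shared with its antisense gene KDM4A-AS1.

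KDM6B (chr17:7743235-7758118, plus strand), the inducible H3K27 demethylase, stood at 62.6, 59.8 and 55.6 CPM in shLuc and at 110, 99.1 and 104 CPM in shWDR5. The groups did not overlap, and the rise was 1.76-fold (log2 fold change 0.82 ± 0.07 SE, edgeR adjusted p = 3.5e-06). The 4 members with the largest rises also met the stricter rule of the study (adjusted p under 0.05, log2 change of at least 0.6 and over 0.5 RPKM), which 7.90% of all tested genes met as higher. KDM5B and KDM4A fell short of that size.

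**Figure D2:**
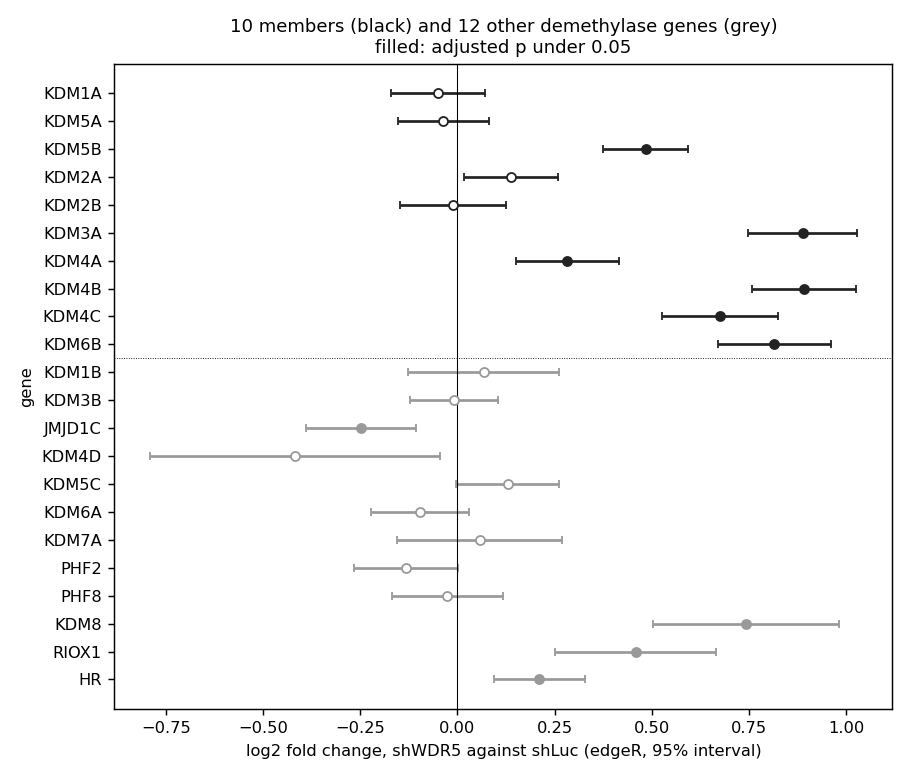
Log2 fold change of shWDR5 against shLuc with its 95% interval (x axis) for the 10 members in black and 12 other demethylase genes in grey (y axis); filled points had an edgeR adjusted p under 0.05. The 6 filled black points lie to the right of 0, and KDM3A and KDM4B reach 0.89.

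Per gene length the order of the member transcripts differed between the groups. Demethylases outside the members were not ranked, and some were as abundant. KDM5C, another H3K4 demethylase, had a mean of 30.0 RPKM in shLuc and 32.9 in shWDR5, and KDM3B 19.4 and 19.3. Scaled counts per kilobase (RPKM), over the merged exon length in the table, put levels of different genes on a common scale. That length joins the annotated exons of a gene, and which transcript forms these cells used was not measured. The order between genes can therefore depend on the annotation. In shLuc cells KDM1A led at 33.2 ± 1.3 RPKM (mean ± SD, n = 3), followed by KDM5B at 26.0 ± 0.60 and KDM2A at 16.6 ± 0.25 RPKM, each with a range separate from the next. KDM3A and KDM4A came next, both at 13.0 RPKM with overlapping ranges, then KDM6B and KDM4B at 8.85 and 8.62 RPKM, whose ranges also overlapped. KDM5A (6.99 RPKM), KDM2B (5.26) and KDM4C (4.42) closed the order, with separate ranges.

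In shWDR5 cells KDM5B led at 36.4 ± 0.71 RPKM, above KDM1A at 32.1 ± 0.82, and the replicate ranges of the pair did not meet in either group. KDM3A came next at 24.1 ± 1.1 RPKM, above KDM2A at 18.3 ± 0.90. KDM4B, KDM4A and KDM6B lay together at 16.0, 15.8 and 15.6 RPKM, each overlapping its neighbour. KDM4C (7.07 RPKM) overlapped with KDM5A (6.82 RPKM), and KDM2B (5.21 RPKM) was lowest. Ranked by mean RPKM over all libraries, KDM2B was above 49.5% of all tested genes, KDM1A above 87.0%, and the other members lay between.

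**Figure D3:**
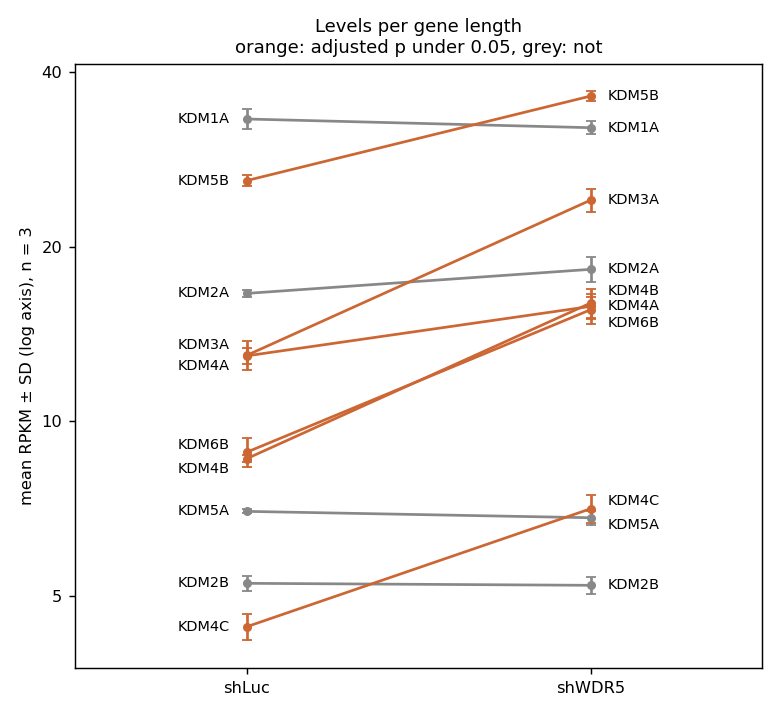
Mean RPKM ± SD of 3 libraries (y axis, log scale) of each demethylase in shLuc and shWDR5 cells (x axis), joined by a line; orange lines had an edgeR adjusted p under 0.05. The KDM5B line crosses that of KDM1A, and those of KDM3A, KDM6B, KDM4B and KDM4C climb most.

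Summed over the members, the level was 137, 133 and 138 RPKM in the shLuc libraries and 183, 173 and 175 RPKM in the shWDR5 libraries, a ratio of the means of 1.30. The 3 H3K4 demethylases among the members made up 48.7% ± 0.16 (SD, n = 3) of this sum in shLuc and 42.5% ± 0.82 in shWDR5, although their own sum went from 66.2 ± 1.5 to 75.3 ± 1.0 RPKM. Demethylases outside the members, such as KDM5C, are not in these sums. KDM3A went from 9.56% ± 0.36 to 13.6% ± 0.26 of the sum and the 3 KDM4 enzymes from 19.1% ± 0.05 to 21.9% ± 0.45. KDM6B held 6.51% ± 0.44 and 8.78% ± 0.21, and the KDM2 pair 16.1% ± 0.41 and 13.3% ± 0.14. These sums are of RNA, not of enzyme or activity, and are given without a test.

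Ratios of related genes inside a library do not depend on how libraries were scaled. The KDM5B to KDM5A ratio of RPKM was 3.62, 3.73 and 3.82 in shLuc and 5.34, 5.11 and 5.58 in shWDR5. For KDM4B to KDM4A it was 0.640, 0.688 and 0.669 against 1.01, 0.972 and 1.06, so that both paralogs stood level per annotated length in shWDR5 cells. KDM4C to KDM4A went from a mean of 0.341 ± 0.016 to 0.448 ± 0.0080, and KDM4B to KDM4C from 1.95 ± 0.09 to 2.26 ± 0.06. The ratio of KDM2A to KDM2B moved less, from 3.16 ± 0.06 to 3.51 ± 0.30.

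Several members have close relatives outside the 10, and the ratio was taken for KDM3A and KDM6B. KDM3B, the paralog of KDM3A with the same substrate, had a log2 fold change of -0.01 ± 0.05 SE (edgeR adjusted p = 0.90), and the KDM3A to KDM3B ratio went from 0.671 ± 0.044 to 1.25 ± 0.03. KDM6A (UTX), the X-linked relative of KDM6B, had a log2 fold change of -0.10 ± 0.06 SE (edgeR adjusted p = 0.18, but 0.043 by total counts alone), and the KDM6B to KDM6A ratio went from 1.23 ± 0.09 to 2.33 ± 0.19. In all 7 pairs the libraries of the groups did not overlap, and the exact permutation test, two-sided, gave p = 0.1 for each pair (0.1 after adjustment over the 7), the smallest it can give with 3 libraries against 3. The numerator of each pair was the gene with the larger log2 fold change, so the direction followed from the choice. The KDM4 pairs share genes, and no share over other gene pairs was taken for comparison. Of the other relatives, KDM1B, the second flavin-dependent demethylase, had a log2 fold change of 0.07 ± 0.09 SE with overlapping groups (edgeR adjusted p = 0.54). KDM5C, an X-linked H3K4 demethylase of the KDM5 family, stood at 195 to 215 CPM in shLuc and 218 to 239 CPM in shWDR5, and its log2 fold change of 0.13 ± 0.06 SE did not pass (edgeR adjusted p = 0.090). It passed without shLuc replicate 1 (0.18, adjusted p = 0.035) and with the replicate block (adjusted p = 0.013). KDM4D, with 31 to 55 reads in a library, had a log2 fold change of -0.42 ± 0.17 SE, with groups that did not overlap (edgeR adjusted p = 0.056, and 0.032 by total counts alone).

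**Figure D4:**
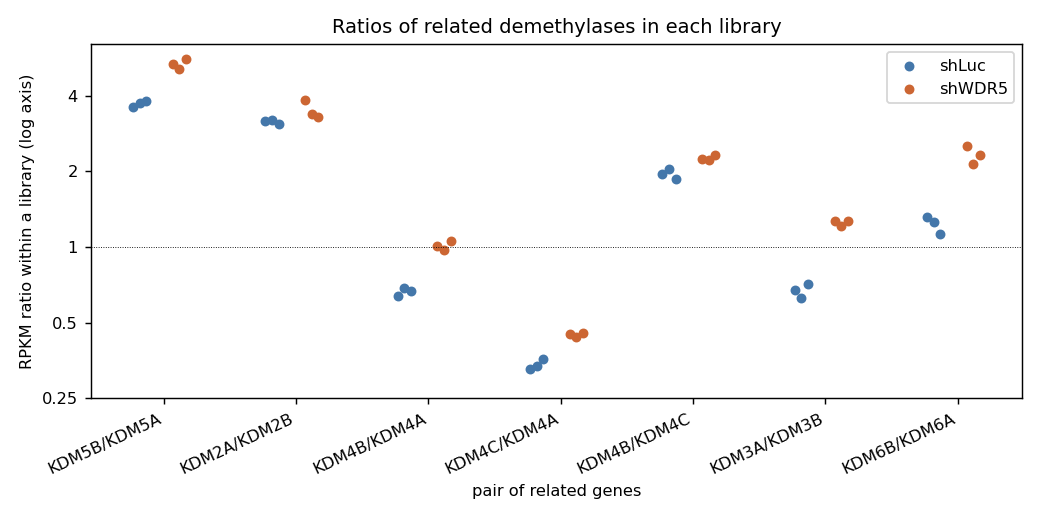
RPKM ratio of 7 pairs of related demethylases (y axis, log scale, dotted line at 1) in each shLuc (blue) and shWDR5 (orange) library. Each pair has all orange points above all blue points, and KDM3A/KDM3B goes from below 1 to above 1. The numerator of each pair is the gene with the larger log2 fold change.

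Other demethylases and related JmjC genes gave a mixed picture. Of 13 listed, 12 were tested, and KDM4E, with at most 2 reads in a library, was not. 3 rose, 1 fell and 8 did not pass, with a median log2 fold change of 0.02. Calls in this and the later lists stand against 26.6% higher, 29.9% lower and 56.5% in either direction over all tested genes. KDM8, a JmjC protein whose demethylase activity is debated, rose from 2.45, 2.48 and 2.48 CPM to 4.58, 3.89 and 3.95 CPM (log2 fold change 0.74 ± 0.11 SE, edgeR adjusted p = 0.00019). RIOX1 (NO66, listed as C14orf169), a nucleolar JmjC hydroxylase, rose by 0.46 ± 0.09 on the log2 scale. JMJD1C, related to KDM3A, fell by 0.25 ± 0.06 (edgeR adjusted p = 0.0067). This list was sensitive to scaling: by total counts alone 3 rose and 4 fell.

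Genes of the complexes in which KDM1A and KDM2B work moved in both directions. Of 12 CoREST partners of KDM1A, 5 rose, 3 fell and 4 did not pass (median log2 fold change -0.04). CTBP1, a corepressor, rose most, from 39.4 ± 2.4 to 74.1 ± 1.6 CPM (log2 fold change 0.91 ± 0.06 SE), and HMG20B, a CoREST subunit, rose by 0.36 ± 0.06. The little-expressed RCOR2 fell from 1.56 ± 0.31 to 0.790 ± 0.160 CPM. Of 9 variant PRC1 partners of KDM2B, 2 rose (SKP1 by 0.35 and the deubiquitinase USP7 by 0.21 on the log2 scale), BCORL1 fell by 0.43 and 6 did not pass (median 0.02).

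The methyltransferases that write the marks taken off by these enzymes were compared next. Of 6 H3K4 methyltransferases, SETD1A and SETD1B rose, by 0.38 ± 0.07 and 0.40 ± 0.06 on the log2 scale, KMT2A fell by 0.26 ± 0.05 and 3 did not pass (median 0.12). All 6 H3K9 methyltransferases passed the test in either direction, against 56.5% of all tested genes. EHMT1 and EHMT2, the dimethylating pair GLP and G9a, rose by 0.40 and 0.26, and 4 fell, with SUV39H1 (-0.64 ± 0.09) and SETDB2 (-0.56 ± 0.12) furthest (median -0.36).

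Of 5 H3K36 methyltransferases none rose, by edgeR's adjusted or unadjusted p or by DESeq2 (0 each). NSD2 (listed as WHSC1), which dimethylates H3K36, fell from 256 ± 12 to 141 ± 4 CPM (log2 fold change -0.87 ± 0.06 SE, edgeR adjusted p = 8.4e-07) and NSD3 fell by 0.27 ± 0.05. SETD2, NSD1 and ASH1L had log2 fold changes of 0.06, -0.08 and -0.11 and did not pass (by total counts alone NSD1 and ASH1L passed as lower, as ASH1L did with the replicate block, adjusted p = 0.036). Both H3K27 methyltransferases fell: EZH2, the Polycomb enzyme, from 52.2 ± 1.3 to 33.7 ± 0.2 CPM (log2 fold change -0.63 ± 0.06 SE, edgeR adjusted p = 6.5e-06), and EZH1 by 0.22 ± 0.07 (edgeR adjusted p = 0.019). The EZH1 call was lost without shLuc replicate 1, shWDR5 replicate 2 or shWDR5 replicate 3 (adjusted p = 0.081, 0.057 and 0.078). For H3K27, the demethylase KDM6B was higher, and its relative KDM6A did not pass (log2 fold change -0.10, edgeR adjusted p = 0.18). EZH2 and, less firmly, EZH1 were lower in the same libraries, where 29.9% of all tested genes were called lower.

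JmjC enzymes need 2-oxoglutarate and are inhibited by succinate and fumarate, and the enzymes that make or use these metabolites were counted as a list. Of 18, 11 fell, 3 rose and 4 did not pass, with a median log2 fold change of -0.32. Across all tested genes 29.9% were called lower. SDHD, a succinate dehydrogenase subunit, fell from 59.9 ± 6.8 to 31.4 ± 5.0 CPM (log2 fold change -0.93 ± 0.12 SE), and the aspartate aminotransferase GOT1 fell by 0.87 ± 0.06. Subunits of the mitochondrial isocitrate dehydrogenase IDH3, which makes 2-oxoglutarate, moved in both directions: IDH3G rose by 0.44, whereas IDH3A and IDH3B fell by 0.40 and 0.35 (edgeR adjusted p = 0.0011 and 0.00084). IDH2, which makes 2-oxoglutarate in the same compartment, fell by 0.68, and OGDH, which uses it, rose by 0.24. Metabolite levels were not measured.

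Of 11 hypoxia targets, the class to which KDM3A and KDM4B also belong, 9 rose, 2 did not pass and none fell (0 at an unadjusted p under 0.05 and 0 by DESeq2), with a median log2 fold change of 0.58. Across all tested genes 26.6% were called higher. ANKRD37 rose from 1.07 ± 0.23 to 2.43 ± 0.18 CPM and the mitophagy receptor BNIP3 from 62.0 ± 1.0 to 137 ± 5 CPM (log2 fold change 1.21 ± 0.16 and 1.14 ± 0.05 SE). The part of this shift in the rises of KDM3A and KDM4B was not tested.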

How the data were processed

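Poly-A RNA libraries (TruSeq) of 3 shLuc and 3 shWDR5 MCF10DCIS.com samples were used. Per the labels, the authors aligned reads with TopHat2 2.1.0 and counted them with featureCounts on hg19/GRCh37. The deposited values are raw counts per gene. Annotation and strand setting are not given in the sources used here. A deposited table of the authors' own edgeR 3.2.2 comparison (fold changes and p-values) was not used.

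Counts were filtered (filterByExpr, minimum count 10), TMM-scaled and fitted with edgeR 4.0.16 (R 4.3.3) in the quasi-likelihood test of shWDR5 against shLuc, without covariates, with Benjamini-Hochberg adjustment over all 16117 genes. The procedure was run on simulated data in which 200 genes were changed. That is far fewer than the 9112 called here, so the run does not test scaling or calling at such a breadth of change. SE is the log2 fold change divided by the square root of F. RPKM used the lengths in the table. Member counts of 1162 to 12908 carry a counting error of 2.93% to 0.880%, and CPM varied by 0.836% to 5.92% (CV) between replicates. No 2 libraries agreed within sampling noise (chi-square per degree of freedom 6.75 to 17.1 within groups).

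The members and lists were chosen with earlier results of these data known. Text names WDR5, the members, from each list the 2 called genes that rose most and the 2 that fell most, and lists of up to 5 tested genes whole; KDM1B, KDM3B, KDM4D, KDM4E, KDM5C, KDM6A, IDH2, IDH3A and IDH3B were named outside this rule, after their values were seen. One gene that the rule selects is counted in its list but not reported here. Alternatives were RLE scaling, total counts, DESeq2 1.42.0, no filter, a replicate block, the study's rule and leaving out each library.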

Additional observations from a re-analysis of the deposited data

How the results depend on the processing

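Across 12 alternatives, KDM3A, KDM4B, KDM4C, KDM6B and WDR5 kept their direction and their call, with log2 fold changes of 0.83 to 0.92, 0.83 to 0.94, 0.62 to 0.71, 0.76 to 0.87 and -1.21 to -1.09. KDM5B and KDM4A lost their call only under the study's rule, which asks for a log2 change of 0.6. KDM2B, never called, changed sign with DESeq2 size factors (0.0065), without shLuc replicate 3 (0.0099) and without shWDR5 replicate 1 (0.017), within a range of -0.030 to 0.017 over the fits that leave out one library. Also never called, KDM3B changed sign with DESeq2 size factors (0.0086), the DESeq2 test (0.0010) and without shLuc replicate 1, shWDR5 replicate 2 or shWDR5 replicate 3 (range -0.033 to 0.010 over those that leave out one library), and KDM1B without shWDR5 replicate 3 (range -0.011 to 0.11). The study's rule called 2962 genes (1274 higher and 1688 lower) in place of 9112 (4291 and 4821), and 15 in place of 51 genes of the lists around the demethylases. Members called higher numbered 4 under that rule, 7 with DESeq2 size factors or the replicate block (KDM2A added, adjusted p = 0.018 with the block) and 6 otherwise. Whether replicate numbers pair the samples is not settled. Same-numbered deviations correlated at 0.37, 0.036 and 0.12. shLuc replicates 1 and 3 matched the shWDR5 replicate of their own number best, whereas shLuc replicate 2 matched shWDR5 replicate 3. The replicate block called 10412 genes in place of 9112, so a replicate effect shared by the groups may be left in the main fit. Leaving out one library gave 8120 to 8847 calls and 6 members in each case. The median of all genes shifted from -0.01 to 0.01 and -0.07 on the log2 scale with RLE scaling and total counts. KDM5A, KDM2A and KDM4B in shLuc and KDM5B in shWDR5 moved by more than 1 SD in mean RPKM under total counts. Depth limits PDGFRB, KDM4D, RCOR2, ANKRD37 and KDM8, which stood at few CPM.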
